A study of Mus musculus with 12 samples.

Results

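The expression of 10 genes of the SR splicing machinery was followed through 12 RNA-seq libraries of mouse prostate. They were the SR protein genes Srsf1, Srsf2, Srsf3, Srsf5, Srsf6, Srsf7 and Srsf10, the Transformer-2 genes Tra2a and Tra2b, and the kinase gene Clk1, 10 of the 24421 genes in the deposited tables. They were listed by name, and the list was chosen by the diet values of these same libraries, because Srsf10 and Tra2b had responded to dietary phenethyl isothiocyanate (PEITC, an isothiocyanate of cruciferous vegetables) differently at 16 and 24 weeks of age. The diet values below are therefore given as a description without a test. The 10 genes themselves were tested, in the main fits, only in comparisons that average the diets, while the diet comparisons were fitted over all genes and tested for other genes. All 10 genes passed the filter on low values (a mean of 0.5 FPKM or more over all libraries; FPKM is fragments scaled to transcript length and library total), as did 13375 genes in all.

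TRAMP mice (C57BL/6-Tg(TRAMP)8247Ng/J) carry the SV40 tumor antigens under a probasin promoter, which acts in prostate epithelium, and develop prostate cancer. The libraries came from ventral and dorsolateral prostate, as total RNA of snap-frozen tissue. The TRAMP groups at 24 weeks were fed PEITC at 0.05% by weight (n = 2) or the AIN93M control diet (n = 2), and so were the TRAMP groups at 16 weeks (n = 2 each). Wild type C57BL/6 mice on the control diet gave 2 libraries at 24 weeks and 1 at 16 weeks. A further library was made from a prostate tumor of unknown lobe in a control-diet TRAMP mouse of 24 weeks. Every PEITC-fed library was from TRAMP mice, so the diet was not measured in wild type prostate. The labels do not say whether replicates are separate mice, so p-values measure the spread between libraries.

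SR proteins bind short enhancer sequences in exons through RNA recognition motifs, and use a tail rich in arginine and serine to recruit the spliceosome to nearby splice sites. The Tra2 proteins have the same kind of tail and favour GAA-rich enhancers. SRPK and CLK kinases phosphorylate these tails, which sets where SR proteins sit in the nucleus and how they act. Many of these genes hold ultraconserved "poison" exons or retained introns that carry an early stop codon. When an SR protein is abundant it can promote the unproductive form of its own or a relative's transcript, which nonsense-mediated decay then removes.

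The 10 genes lie on 8 chromosomes of the mm10 (GRCm38) assembly. In the GENCODE annotation Srsf10 (ENSMUSG00000028676.17) spans chr4:135855747-135869908, Tra2b (ENSMUSG00000022858.16) chr16:22244549-22266005 and Tra2a (ENSMUSG00000029817.11) chr6:49243924-49264033. Srsf7 (ENSMUSG00000024097.11) and Srsf3 (ENSMUSG00000071172.13) lie on the same chromosome at chr17:80200080-80207307 and chr17:29032628-29043373, and Clk1 (ENSMUSG00000026034.17) spans chr1:58410189-58424066. Srsf1 (ENSMUSG00000018379.17) at chr11:88047373-88053755 shares its chromosome with Srsf2 (ENSMUSG00000034120.18) at chr11:116849901-116853094. Srsf5 (ENSMUSG00000021134.17) spans chr12:80945504-80950507 and Srsf6 (ENSMUSG00000016921.14) chr2:162931528-162937121. RefSeq promoter entries, on GRCm38.p6, matched 9 of the 10 genes, all but Clk1. A cyclic AMP response element half-site, TGACG read on either strand, was in the 250 bases before the start of 7 of the 9 (Srsf1, Srsf3, Srsf5, Srsf6, Srsf10, Tra2a and Tra2b). The same letters were in 17.8% of all 32851 promoters and in 26.1% of the 12705 promoters of genes tested here. Stretches of upstream DNA that no GENCODE exon covers are shown for 4 of the genes whose diet values had opposite signs at the 2 ages, Tra2a, Tra2b and Srsf6 with the half-site and Srsf7 without it. Capitals mark the half-site, and the pair that overlap in Tra2a form the palindrome TGACGTCA.
Tra2a, chr6:49264053-49264202, minus strand: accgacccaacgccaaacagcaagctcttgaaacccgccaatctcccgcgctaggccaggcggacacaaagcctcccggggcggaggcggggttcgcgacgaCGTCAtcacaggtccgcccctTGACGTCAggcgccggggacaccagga
Tra2b, chr16:22266006-22266155, minus strand: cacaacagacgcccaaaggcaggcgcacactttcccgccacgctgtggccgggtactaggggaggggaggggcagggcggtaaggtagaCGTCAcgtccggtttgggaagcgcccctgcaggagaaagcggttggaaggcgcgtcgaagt
Srsf6, chr2:162931358-162931507, plus strand: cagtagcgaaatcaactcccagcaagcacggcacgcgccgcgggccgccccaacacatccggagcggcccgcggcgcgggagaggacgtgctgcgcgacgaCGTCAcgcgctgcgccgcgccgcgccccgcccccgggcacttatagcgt
Srsf7, chr17:80207308-80207457, minus strand: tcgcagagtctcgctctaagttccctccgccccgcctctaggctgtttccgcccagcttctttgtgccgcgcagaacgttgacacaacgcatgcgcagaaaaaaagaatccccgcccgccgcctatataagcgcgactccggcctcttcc
A match gives the letters in the window and not binding. Of 5 other motifs searched on both strands, CCAAT was in 4 of the 9 (34.9% of promoters of tested genes), TATAA in 4 (12.6%), CCGGAA in 4 (21.3%), and CACGTG (8.11%) and the palindromic site of NRF1 (1.57%) in 0.

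Several features of the libraries bear on values of these genes. The number of reads is not given in the files. Relative depth, read from the smallest step of the FPKM values, was set to 1 in the deepest library (control-diet TRAMP replicate 0 of 24 weeks) and was as low as 0.635 in the others, and replicates correlated at 0.987 to 0.991 (Pearson, across genes). The 12 secretory and luminal markers were all above 0 in every group, and their summed level was 6173 to 6947 FPKM in TRAMP prostates of 24 weeks, 8463 to 9122 FPKM in those of 16 weeks and 4960 FPKM in the tumor, against 26784 to 30166 FPKM in wild type. The lone wild type library of 16 weeks also held seminal vesicle transcripts, 7804 FPKM over 6 markers against at most 8.02 FPKM in any other library. Relative levels depended on the GC content of the gene to a different degree in each library (Spearman correlation across 12896 genes). It was −0.109 and −0.160 in the PEITC-fed and 0.0982 and 0.203 in the control-diet TRAMP libraries of 24 weeks. At 16 weeks it was −0.0224 and 0.0247 in the PEITC-fed and −0.286 and −0.325 in the control-diet TRAMP libraries. The other 4 libraries lay between −0.0016 and 0.113. Of the 10 genes 9 are poor in GC, between 39.2% for Clk1 and 44.9% for Tra2a, which puts them at percentiles 3.85 to 24.6 of the tested genes. Srsf2 is the exception at 49.97%.

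All 10 genes were well expressed in every library. Srsf5 averaged 160.3 FPKM over the 12 libraries and Srsf2 averaged 105 FPKM. Srsf6 averaged 75.4 FPKM and Srsf3, the smallest SR protein, 63.1 FPKM. Tra2b, Srsf7 and Srsf1 lay close together at 49.4, 47.6 and 45.9 FPKM, and their ranges over libraries overlapped. Tra2a followed at 40.9 FPKM, Clk1 at 31.1 FPKM and Srsf10 at 27.0 FPKM. The most expressed gene was also the least steady between replicates, since Srsf5 had 202 FPKM in one and 129 FPKM in the other wild type library of 24 weeks. Exons of Srsf2 overlap those of Mettl23 and Mfsd11 on the opposite strand over 460 and 288 of its 2958 bases, and whether reads were counted by strand is not given in the sources used here.

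**Figure D1:**
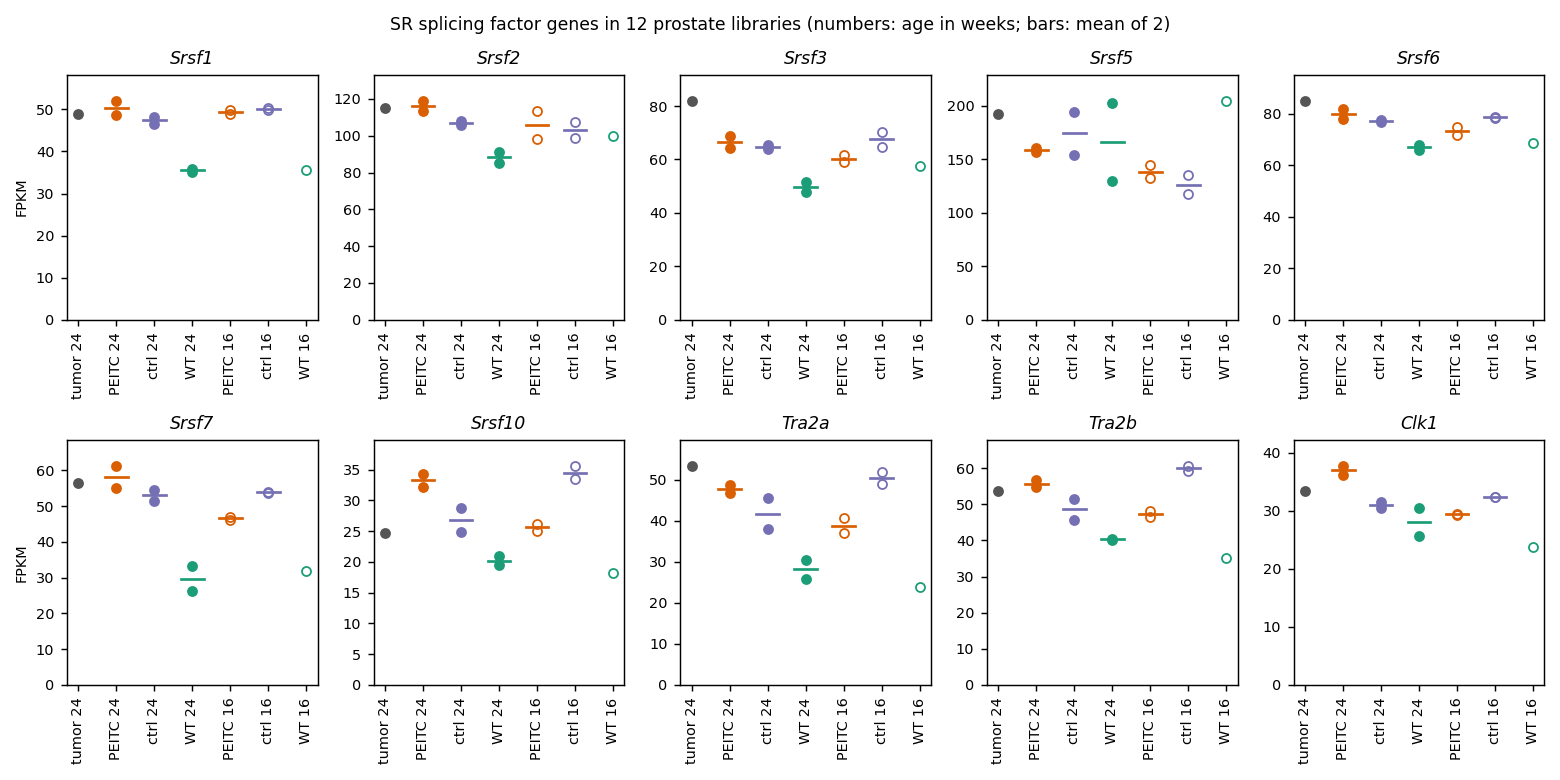
FPKM of the 10 genes in each of the 12 libraries (1 point per library, filled at 24 weeks and open at 16 weeks; short bars are means of 2), with the tumor and the TRAMP groups on PEITC and control diet left of wild type (WT) at each age. Srsf10, Tra2a and Tra2b are lowest in wild type, and among TRAMP prostates their group means are highest in PEITC-fed mice at 24 weeks and in control-diet mice at 16 weeks.

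TRAMP prostates expressed more of most SR genes than wild type prostates at 24 weeks. Of the 10 genes 9 were called higher and none lower, where 25.9% of all 13375 genes were called higher and 25.3% lower, 51.2% in all (limma on log2(FPKM + 1), both diets averaged, adjusted p under 0.05). The median log2 fold change was 0.38 for the 10 genes and 0.00 for all genes tested. Srsf7, a zinc-knuckle SR protein, rose most. Its level was 55.2 and 61.2 FPKM in PEITC-fed and 51.6 and 54.4 FPKM in control-diet TRAMP prostates, against 33.2 and 26.3 FPKM in wild type. The groups were well apart, and the log2 fold change was 0.89 (SE 0.09, adjusted p = 0.000117), or 1.85-fold on the FPKM + 1 scale. Tra2a rose 1.56-fold (log2 fold change 0.64, SE 0.09, adjusted p = 0.000762), with 46.7, 48.7, 37.9 and 45.5 FPKM in TRAMP prostates, PEITC-fed first, against 30.6 and 25.9 FPKM in wild type.

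Srsf10, which represses splicing when it loses its phosphates in mitosis or heat shock, was next. It had 32.2 and 34.3 FPKM in PEITC-fed and 24.8 and 28.7 FPKM in control-diet TRAMP prostates, against 20.9 and 19.5 FPKM in wild type. Each TRAMP library was above both wild type libraries (log2 fold change 0.54, SE 0.07, adjusted p = 0.000482). Srsf1, which acts in constitutive and alternative splicing and has been studied as an oncogene, averaged 48.9 ± 2.29 FPKM in TRAMP (SD, n = 4) and 35.5 ± 0.40 FPKM in wild type (SD, n = 2), and the log2 fold change was 0.45 (SE 0.04, adjusted p = 0.000121). Its 4 TRAMP values lay between 46.6 and 52.1 FPKM, all above wild type. Tra2b averaged 52.2 ± 4.75 FPKM in TRAMP (SD, n = 4) and 40.4 ± 0.23 FPKM in wild type (SD, n = 2), and the log2 fold change was 0.36 (SE 0.06, adjusted p = 0.00113). The SD over the 4 TRAMP libraries includes the difference between diets.

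Srsf3, Srsf2, Srsf6 and Clk1 rose as well. Their log2 fold changes were 0.39 for Srsf3 (SE 0.06, adjusted p = 0.000754), 0.33 for Srsf2 (SE 0.07, adjusted p = 0.00464), 0.23 for Srsf6 (SE 0.04, adjusted p = 0.00291) and 0.27 for Clk1 (SE 0.07, adjusted p = 0.0117). Srsf2 is a component of nuclear speckles, Srsf6 has, like Srsf1 and Srsf5, an additional atypical RNA recognition motif, and Clk1 phosphorylates SR proteins. Srsf5 did not pass the test. It had 161, 157, 195 and 154 FPKM in TRAMP prostates, PEITC-fed first, against 202 and 129 FPKM in wild type, and the wild type libraries enclosed all TRAMP values (log2 fold change 0.03, SE 0.17, adjusted p = 0.88). The Clk1 call was the least firm of the 9. Its log2 fold change was 0.16 after the dependence on GC content was removed (adjusted p = 0.0994) and 0.15 without wild type replicate 1. It was 0.14 for the control-diet TRAMP libraries alone over wild type (adjusted p = 0.167), a comparison that does not average the diets. The adjusted p of Clk1 over 24 alternatives ran between 0.00223 and 0.173.

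**Figure D2:**
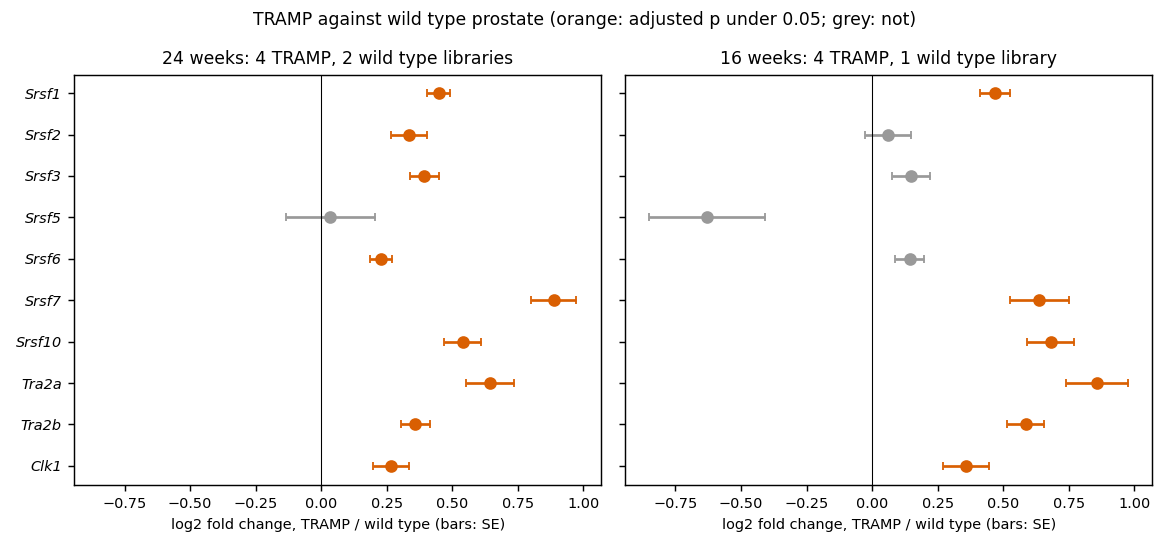
Log2 fold change of the 10 genes in TRAMP over wild type prostate, diets averaged, at 24 weeks (left) and 16 weeks (right); bars are 1 SE, and points are orange where the adjusted p is under 0.05 and grey where it is not. Srsf7 has the highest value at 24 weeks (0.89) and Tra2a at 16 weeks (0.86), while Srsf5 lies near 0 at 24 weeks and at −0.63 at 16 weeks.

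Markers of other cell types differed along with these genes. All 16 proliferation markers were higher in TRAMP at 24 weeks (summed level 724 to 873 FPKM in TRAMP, 101 to 103 FPKM in wild type), as were all 8 leukocyte markers (121 to 270 FPKM in TRAMP, 44.3 to 49.1 FPKM in wild type). All 8 smooth muscle markers were lower (331 to 392 FPKM in TRAMP, 875 to 921 FPKM in wild type), and so were 9 of 12 secretory and luminal and 5 of 6 basal markers. No marker of these lists was at 0 in either group. In bulk tissue fewer cells of a type and less RNA per cell cannot be told apart, and the part of cell makeup in the rise of the SR genes was not tested. At 16 weeks the 16 proliferation markers were again all higher in TRAMP (763 to 942 FPKM in TRAMP, 156 FPKM in wild type) and the 8 smooth muscle markers all lower (338 to 762 FPKM in TRAMP, 1044 FPKM in wild type), while 2 of 8 leukocyte markers were higher (98.6 to 219.9 FPKM in TRAMP, 63.4 FPKM in wild type). Also lower at 16 weeks were 6 of 12 secretory and luminal markers, 4 of 6 basal markers (33.9 to 60.9 FPKM in TRAMP, 144 FPKM in wild type), all 5 skeletal muscle markers tested (16.4 to 35.6 FPKM in TRAMP, 85.3 FPKM in wild type) and all 5 seminal vesicle markers tested. Their part in the values of the SR genes was not tested.

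At 16 weeks the comparison rested on the lone wild type library, which was assumed to vary like the other groups. Of the 10 genes 6 were called higher in TRAMP and none lower, where 19.9% of all genes were called higher and 17.6% lower, 37.5% in all. The median log2 fold change was 0.41 for the 10 genes and 0.02 for all genes. Tra2a led with 40.7, 36.9, 52.0 and 49.1 FPKM in TRAMP, PEITC-fed first, against 24.0 FPKM in wild type (1.81-fold, log2 fold change 0.86, SE 0.12, adjusted p = 0.00119). Srsf10 had 26.1, 25.1, 33.4 and 35.6 FPKM in TRAMP, in the same order, against 18.2 FPKM in wild type (log2 fold change 0.68, SE 0.09, adjusted p = 0.00103). Every TRAMP library of both genes was above the wild type library, whichever the diet. Srsf7 (0.64, SE 0.11, adjusted p = 0.0037), Tra2b (0.59, SE 0.07, adjusted p = 0.000674), Srsf1 (0.47, SE 0.06, adjusted p = 0.000706) and Clk1 (0.36, SE 0.09, adjusted p = 0.0142) rose as well on the log2 scale.

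The other 4 genes did not pass at 16 weeks. Srsf2 was at 0.06 (adjusted p = 0.62), Srsf3 at 0.15 (adjusted p = 0.144) and Srsf6 at 0.14 (adjusted p = 0.0731). Srsf5 had 132, 144, 135 and 118 FPKM in TRAMP, PEITC-fed first, against 205 FPKM in wild type, and its log2 fold change of −0.63 missed the threshold (SE 0.22, adjusted p = 0.055). The same gene passed after GC correction (−0.74, adjusted p = 0.0343), and its adjusted p over 24 alternatives ran between 0.0122 and 0.19. The lowest came from leaving out a wild type library of 24 weeks, which does not enter this comparison. That left the log2 fold change at −0.63 and changed only the shared estimate of the spread. Set against the wild type libraries of 24 weeks, Srsf2, Srsf3 and Srsf6 passed (adjusted p 0.0214, 0.00137 and 0.00963) and Clk1 did not (0.14, adjusted p = 0.13). Clk1 also did not pass after GC correction (0.25, adjusted p = 0.0695), and over 24 alternatives the adjusted p ran between 0.00341 and 0.13 for Clk1, between 0.0214 and 0.978 for Srsf2, between 0.00137 and 0.658 for Srsf3 and between 0.00762 and 0.491 for Srsf6. The difference between the TRAMP effects at the 2 ages passed for none of the 10 genes in limma, with 4 at an unadjusted p under 0.05 (Srsf2, Srsf3, Srsf5 and Tra2b), while 53 of all genes passed and 1739 (13%) had an unadjusted p under 0.05.

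Within TRAMP prostates, with the diets averaged, the log2 differences of the 10 genes between 24 and 16 weeks lay between −0.03 and 0.33, and their 95% intervals lay within −0.17 and 0.65. None of the 10 was called in limma (2 at an unadjusted p under 0.05, Srsf5 and Clk1), where 0.0224% of all genes were called, 3 genes in all (Sbp, Cyp2b10 and Msmo1, each lower at 24 weeks) with 1593 at an unadjusted p under 0.05. Srsf10 averaged 30.0 ± 4.16 FPKM at 24 weeks and 30.0 ± 5.22 FPKM at 16 weeks (SD, n = 4 each). Its log2 difference was 0.00, with a 95% interval of −0.13 to 0.14. Tra2b averaged 52.2 ± 4.75 FPKM at 24 weeks and 53.7 ± 7.32 FPKM at 16 weeks (SD, n = 4 each), a log2 difference of −0.03 (95% interval −0.14 to 0.07). For both genes the mean at each age averages over diet groups that lay apart. Srsf5 (0.33, 95% interval 0.01 to 0.65) and Clk1 (0.13, 95% interval 0.00 to 0.26) had the widest distance from 0 relative to their error, with adjusted p of 0.412 and 0.409.

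The tumor is 1 library, assumed to vary like the other groups. In it 1 of the 10 genes, Srsf3, was called against TRAMP prostates of 24 weeks, where 9.15% of all genes were called higher and 9.44% lower, 18.6% in all. Srsf3 had 82.0 FPKM in the tumor, against 64.2 and 68.8 FPKM in PEITC-fed and 65.4 and 64.0 FPKM in control-diet TRAMP prostates, the highest of all 12 libraries (log2 fold change 0.32, SE 0.07, adjusted p = 0.021). That call was lost without PEITC replicate 0 of 24 weeks (log2 fold change 0.29). Over 24 alternatives, 1 of which takes wild type in place of TRAMP prostate, the adjusted p of Srsf3 ran between 0.00023 and 0.064. Srsf10 went the other way in value. It had 24.6 FPKM in the tumor, below 32.2, 34.3, 24.8 and 28.7 FPKM in the TRAMP prostates (log2 fold change −0.26, SE 0.09, adjusted p = 0.0801), while the other genes had log2 fold changes between −0.02 and 0.26. Without control-diet replicate 0 of 24 weeks Srsf10 was called lower in the tumor (−0.32, adjusted p = 0.0365), and its adjusted p over 24 alternatives, one of which takes wild type in place of TRAMP prostate, ran between 0.0365 and 0.514. Markers also differed in the tumor. Of 5 endothelial markers 4 were higher (22.7 FPKM in the tumor, 4.85 to 10.1 FPKM in TRAMP prostates of 24 weeks), as were 2 of 6 basal markers (87.4 FPKM in the tumor, 37.6 to 45.5 FPKM in TRAMP prostates) and 4 of 14 immediate early genes tested (755 FPKM in the tumor, 417 to 520 FPKM in TRAMP prostates, over the 16 listed). Of the basal sum in the tumor Krt17 alone held 52.8 FPKM, against group means of 2.53 (PEITC-fed) and 5.91 FPKM (control diet) in TRAMP prostates. The other basal marker called was Krt14, and 4 of the 6 did not pass. The median log2 fold change of the 6 was −0.01. Of the 12 secretory and luminal markers 4 were lower and 1 higher. No gene of these 4 lists was at 0 in either group, and their part in the tumor values was not tested.

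The diet differences of Srsf10 and Tra2b, which led to the choice of the 10 genes, had opposite signs at the 2 ages, and so had that of Tra2a. At 24 weeks Srsf10 had 32.2 and 34.3 FPKM in PEITC-fed TRAMP prostates, against 24.8 and 28.7 FPKM on the control diet, and at 16 weeks it had 26.1 and 25.1 FPKM in PEITC-fed prostates, against 33.4 and 35.6 FPKM on the control diet. The groups did not overlap at either age, and the log2 differences were 0.31 (SE 0.08) at 24 weeks and −0.42 (SE 0.08) at 16 weeks. Tra2b had 54.7 and 56.7 FPKM in PEITC-fed prostates of 24 weeks, against 45.8 and 51.6 FPKM on the control diet. At 16 weeks it had 46.5 and 48.3 FPKM in PEITC-fed prostates, against 59.4 and 60.6 FPKM on the control diet. The same crossing appeared in Tra2b, with log2 differences of 0.19 (SE 0.06) and −0.33 (SE 0.06). The 24-week value of Tra2b was 0.11 without control-diet replicate 0 and 0.10 after GC correction. Tra2a, the close relative of Tra2b, had 46.7 and 48.7 FPKM in PEITC-fed prostates of 24 weeks against 37.9 and 45.5 FPKM on the control diet. At 16 weeks Tra2a had 40.7 and 36.9 FPKM in PEITC-fed prostates against 52.0 and 49.1 FPKM on the control diet. Its log2 differences were 0.19 (SE 0.11) at 24 weeks and −0.37 (SE 0.11) at 16 weeks. The 24-week value of Tra2a ran between 0.07 and 0.32 with 1 library left out, and was 0.16 after GC correction.

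The difference between the 24-week and the 16-week diet values was 0.72 for Srsf10 (SE 0.11), 0.57 for Tra2a (SE 0.15), 0.53 for Tra2b (SE 0.09), 0.38 for Clk1 (SE 0.11) and 0.34 for Srsf7 (SE 0.14) on the log2 scale. Among the remaining SR genes it was 0.20 for Srsf3, 0.15 for Srsf6, 0.11 for Srsf1 and 0.08 for Srsf2. Srsf5 had the opposite sign, at −0.25 with a wide error (SE 0.28). In 6 of the 10 genes (Srsf6, Srsf7, Srsf10, Tra2a, Tra2b and Clk1) both PEITC libraries lay above both control-diet libraries at 24 weeks and below both at 16 weeks, a pattern found in 7.69% of all genes, while the opposite pattern was found in 5.68%. Taken singly, PEITC was above control without overlap at 24 weeks in 8 of the 10 (23.7% of all genes) and below it at 16 weeks in 7 (21.2%). In the fit over all genes the difference between ages passed for 0.00748% of them, which is Cyp2b10 alone, with 1720 genes at an unadjusted p under 0.05, and nothing is read from these shares, since this contrast chose the genes. That count was not stable. It was 12 of 20788 genes without the filter on low values and 0 of 13375 without the intensity trend. It rose further without control-diet TRAMP replicate 2 or PEITC replicate 0 of 24 weeks, and with a replicate block. Those fits leave 1 library in a group.

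GC content moved with the same contrast. Across 12896 genes the Spearman correlation between GC content and the log2 difference was −0.315 for PEITC over control at 24 weeks, 0.356 at 16 weeks and −0.435 for the difference between ages, and the 3232 genes under 45% GC had a median difference between ages of 0.14. With the dependence on GC removed from each library, the difference between ages was 0.58 for Srsf10, 0.50 for Tra2a, 0.35 for Tra2b, 0.20 for Srsf7 and 0.19 for Clk1. It was 0.10 for Srsf2, 0.05 for Srsf3, 0.04 for Srsf6, −0.05 for Srsf1 and −0.42 for Srsf5. That step takes out whatever runs with GC content, technical or not. The crossing without overlap then held for 4 of the 10 genes (Srsf10, Tra2a, Tra2b and Clk1) and for 5.18% of all genes. The median over the 10 genes was 0.27 as deposited and 0.15 after correction. The correlation with GC was −0.0253 for TRAMP over wild type at 24 weeks and −0.130 at 16 weeks. After the correction 8 of the 10 genes were called higher at 24 weeks, where 2856 of all 13375 genes were called higher and 4247 lower. Their median log2 fold change was 0.27 (−0.07 for all genes), against 0.38 (0.00 for all genes) as deposited. At 16 weeks 5 were called higher and 1 lower (2421 and 2455 of all genes), with a median of 0.31, against 0.41 as deposited. Corrected log2 fold changes of TRAMP over wild type at 24 weeks were 0.78 for Srsf7, 0.55 for Tra2a, 0.44 for Srsf10 and 0.25 for Tra2b, all past the threshold (highest adjusted p = 0.00598). The part of GC content in the diet values was not tested beyond these corrections.

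**Figure D3:**
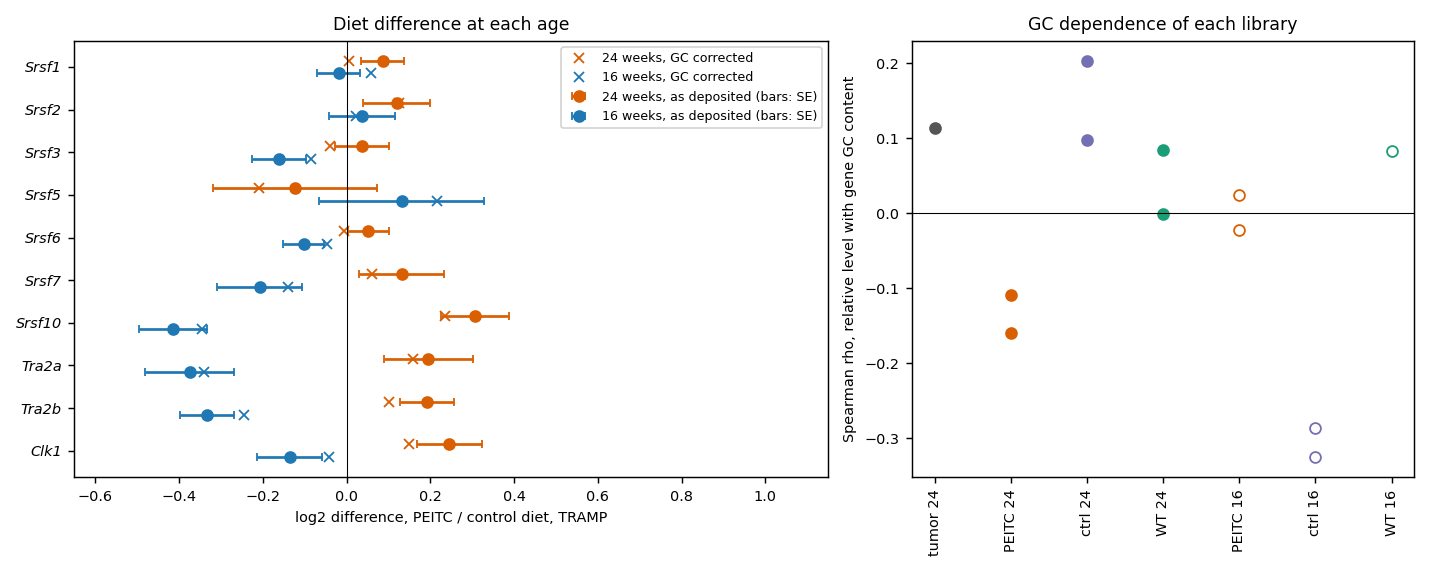
Left, log2 difference of PEITC over control diet in TRAMP prostate at 24 weeks (orange) and 16 weeks (blue) for the 10 genes, as deposited (circles, bars are 1 SE) and after GC correction (crosses). Right, Spearman correlation of relative level with gene GC content in each of the 12 libraries, where the control-diet TRAMP libraries of 16 weeks are lowest (−0.286 and −0.325); Srsf10 is at 0.23 at 24 weeks and −0.35 at 16 weeks after correction.

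These FPKM values are per gene and do not separate productive from unproductive transcripts. In GENCODE 9 of the 10 genes, all but Srsf10, have at least 1 transcript annotated as a target of nonsense-mediated decay and at least 1 with a retained intron. Both classes were annotated for 22.3% of the 12225 protein-coding genes tested. Clk1 has the most retained-intron transcripts, 7 of its 13, and Tra2b has 3 decay transcripts among 9. Of the 15 listed genes of the decay machinery itself, 2 were called higher and 2 lower in TRAMP over wild type at 24 weeks. That is 13.3% each way, below the 25.9% higher and 25.3% lower of all genes. Smg9, a subunit of the complex that acts on the decay factor Upf1, fell by 0.78 on the log2 scale (SE 0.07, adjusted p = 6.91e-05).

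Core spliceosome, hnRNP and other SR genes were also more often called higher than lower in TRAMP prostate. Of 45 core snRNP and spliceosome proteins 27 were called higher and 1 lower at 24 weeks, with a median log2 fold change of 0.24 (18 higher and 4 lower after GC correction, median 0.14). That correction also shifted all 13375 genes, to 2856 called higher and 4247 lower and a median of −0.07. Lsm2, a subunit of the ring that binds U6 RNA, rose by 0.86 (SE 0.05, adjusted p = 8.39e-06), with 22.3, 22.1, 22.0 and 21.5 FPKM in TRAMP, PEITC-fed first, against 11.6 and 11.7 FPKM in wild type. The 4 TRAMP values lay close together, above both wild type values. Of 31 hnRNP proteins, which often oppose SR proteins, 15 were called higher and 2 lower (median 0.18), or 10 higher and 4 lower after GC correction (median 0.10). Hnrnph1 rose by 0.69 (SE 0.05, adjusted p = 2.72e-05), while Pcbp1 fell by 0.27 (SE 0.04, adjusted p = 0.00164).

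Of 25 further SR and RS domain proteins 9 were called higher and 2 lower (median 0.11, or 0.00 after GC correction, against −0.07 for all genes so corrected). Srsf4, a long-tailed SR protein, rose by 0.58 (SE 0.07, adjusted p = 0.000302) and the exon junction factor Rnps1 by 0.44 (SE 0.05, adjusted p = 0.000176), while Son, a scaffold of nuclear speckles, fell by 0.26 (SE 0.07, adjusted p = 0.012) and Srsf9 by 0.17 (SE 0.05, adjusted p = 0.0165). Of 18 kinases, phosphatases and import factors of SR proteins 6 were called higher and 3 lower (median 0.04). The SR protein kinase Srpk1 rose by 0.45 (SE 0.07, adjusted p = 0.00128) and the phosphatase inhibitor Ppp1r8 by 0.46 (SE 0.07, adjusted p = 0.000775), while Tnpo3, which carries SR proteins into the nucleus, fell by 0.36 (SE 0.08, adjusted p = 0.00548). After GC correction the median of these 18 was −0.03, against −0.07 for all genes. Of 21 tissue-regulated splicing factors 9 were called higher and 3 lower (4 and 5 after GC correction, 5 and 4 after quantile normalization), among them Khdrbs3 (0.95, SE 0.13, adjusted p = 0.000625) and, lower, the epithelial factor Esrp1 (−0.32, SE 0.06, adjusted p = 0.00248). At 16 weeks the calls of these 5 lists were 18, 10, 6, 6 and 5 higher and 1 lower, the neuronal factor Rbfox3 (−1.24, SE 0.32, adjusted p = 0.0184). In the tumor the core proteins had 8 called higher than in TRAMP prostates, with Lsm2 at 28.6 FPKM, against 22.3, 22.1, 22.0 and 21.5 FPKM (log2 fold change 0.36, SE 0.06, adjusted p = 0.00759).

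**Figure D4:**
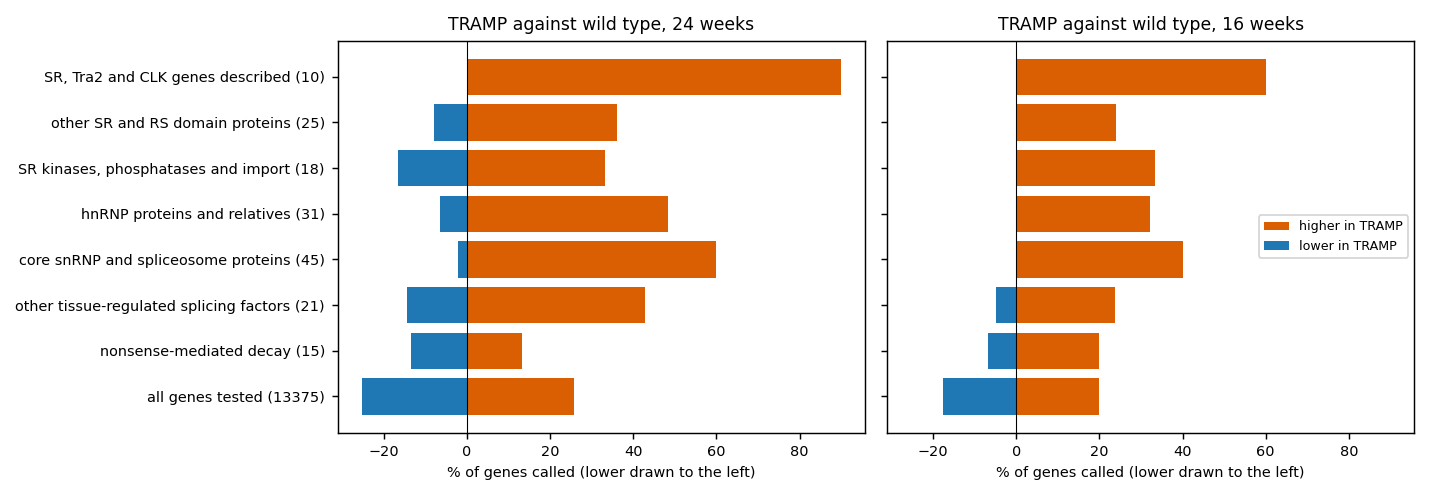
Percent of the tested genes of each splicing list (number tested in brackets) that were called higher in TRAMP than in wild type prostate (orange, to the right) or lower (blue, to the left) at 24 and 16 weeks, with all genes tested at the bottom. The 10 SR, Tra2 and CLK genes have 90% and 60% called higher, the core proteins 60% and 40%, and all genes 25.9% and 19.9%.

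None of the genes in these lists was called for diet at either age or for the difference between ages (limma). At an unadjusted p under 0.05 the difference between ages counted 3 of 25 further SR proteins, 3 of 18 kinases and partners, 6 of 31 hnRNP proteins, 2 of 45 core proteins and 4 of 21 tissue-regulated factors, where 12.9% of all genes did so. Clk2, Clk4 and Clk3 are named here as relatives of Clk1 after their values were seen. Clk2 and Clk4 had differences between ages of 0.52 (SE 0.15, adjusted p = 0.306) and 0.35 (SE 0.16, adjusted p = 0.4). Clk2 had 4.86 and 4.34 FPKM in PEITC-fed against 3.46 and 4.01 FPKM in control-diet prostates of 24 weeks, and 3.54 and 3.06 FPKM in PEITC-fed against 4.26 and 4.17 FPKM in control-diet prostates of 16 weeks. Clk3 was at −0.06 (SE 0.09, adjusted p = 0.804).

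Over the 11 prostate libraries Srsf10 and Tra2b followed each other closely, with a Pearson correlation of 0.986 of their log2(FPKM + 1) values. The points share the difference between TRAMP and wild type and the dependence of libraries on GC content, so the value is a description. Outside the 10 genes, with Gm and Rik gene models left out, the pattern most like Srsf10 was that of Isg20l2 (0.984), a nucleolar exonuclease. Next were Ing3 (0.971), a subunit of the NuA4 histone acetyltransferase, and Naa16 (0.969). Isg20l2 (0.978) was also the most like Tra2b, followed by Rsl1d1 (0.972) and Banp (0.967). Isg20l2 had 11.7 and 12.5 FPKM in PEITC-fed against 10.8 and 11.2 FPKM in control-diet prostates of 24 weeks, 10.8 and 10.7 FPKM in PEITC-fed against 12.1 and 12.8 FPKM in control-diet prostates of 16 weeks, and 9.08 and 9.33 FPKM in wild type of 24 weeks. Among the other genes of the group, correlations ranged widely. Srsf5 was negative with every other one (−0.58 with Tra2b to −0.01 with Srsf2).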

How the data were processed

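Prostate and tumor RNA of 12 mouse libraries was sequenced, and the authors deposited 1 table of gene FPKM values per library, a unit normalized to gene length and library total. Per the submitters' processing notes, mm10 and the tools HISAT2, Picard, featureCounts and DESeq2 were used, while versions, annotation and strand setting were not given in the sources used here. Depth is unknown apart from the relative values. Genes averaging 0.5 FPKM or more were fitted as log2(FPKM + 1), so folds of low genes are understated, in limma 3.58.1 (R 4.3.3) with 7 group means over 12 libraries, 5 residual degrees of freedom, an intensity trend and Benjamini-Hochberg adjustment over 13375 genes, and called at an adjusted p under 0.05. All tests were two-sided. In the main fits the 10 genes were tested in contrasts that average both diets, and the diet contrasts were fitted over all genes and tested for other genes only. Alternatives with the control-diet TRAMP libraries alone did not average the diets, so they share values with the choice of the genes. Simulated data for TRAMP over wild type at 24 weeks held 13375 genes, with 100 changed by 0.5 and 100 by 1 on the log2 scale. Of these 39% and 85% were recovered, with 4 false calls. Far more genes were called in the real comparison (51.2%). The adjusted threshold depends on that share, so these recoveries do not carry over to it. GC content came from the longest GENCODE M21 transcript of each symbol (95.7% of symbols matched), and the GC correction removed a quadratic fit from each library. Figures used Python 3.11.15 and matplotlib 3.10.9. The 10 genes, the lists and the tests were chosen with earlier results of these data known. Genes named beyond the 10 were, by list, comparison and direction, the called genes of largest change, at most 4, and the 8 with the highest correlation to Srsf10 or Tra2b. Gm and Rik gene models were left out of the ranking by correlation. Clk2, Clk3 and Clk4, and the genes of counts of 5 or fewer (Sbp, Cyp2b10 and Msmo1), were named after their values were seen. Alternatives changed the pseudocount, filter, scaling, GC handling, variance model, libraries, wild type and tumor references, and replicate block.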

Additional observations from a re-analysis of the deposited data

Results flagged for a closer look

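In 6 of the 10 genes every library moved one way with PEITC at 24 weeks and the opposite way at 16 weeks, as in 7.69% of all genes. The difference between ages on the log2 scale was 0.72 (0.721) for Srsf10, 0.57 (0.569) for Tra2a, 0.53 (0.526) for Tra2b, 0.38 (0.382) for Clk1, 0.34 (0.338) for Srsf7 and 0.15 (0.153) for Srsf6. It was not tested, since such differences in Srsf10 and Tra2b were the ground on which the genes were chosen. With 1 library left out in turn it ran between 0.62 and 0.82 for Srsf10, between 0.44 and 0.70 for Tra2a and between 0.44 and 0.61 for Tra2b. These ranges reuse the libraries that chose the genes, so they are a description and no support for the crossing. After GC correction the crossing held for 4 of the 10 genes and 5.18% of all genes. Srsf7 (0.20) and Srsf6 (0.04) were no longer among them, and Clk1 was at 0.19.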

How the results depend on the processing

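For TRAMP over wild type, 9 of 10 genes were called at 24 weeks and 6 of 10 at 16 weeks, and each alternative stayed within 1.5 times of these counts. The median diet difference over the 10 genes was −0.15 at 16 weeks and moved to −0.0663 with GC correction, alone or with a replicate block. At 24 weeks it was 0.13, against 0.08 with GC correction and 0.07 without PEITC replicate 1. The median difference between ages was 0.27, and moved to 0.15 with GC correction and to 0.13 with a replicate block and GC correction. In fits with the block the control-diet TRAMP group of 24 weeks rested on replicate 0 alone, so they also leave out a library. In the tumor 1 gene was called, against 0 with a replicate block, 8 with wild type of 24 weeks in place of TRAMP prostate, and 0 to 2 with 1 library left out. With that wild type reference the Srsf10 value in the tumor reversed to 0.28 (adjusted p = 0.0481), because the comparison itself is another one. Replicate numbers were not used as pairs in the main fits. Same-numbered libraries correlated at −0.35 to 0.28 over 10 pairs of groups in their deviations. With 2 libraries in each of these groups, the values cannot tell whether libraries were paired. Leaving the 50 most abundant genes out of the scaling moved the median of all genes to 0.10 at 24 weeks and 0.12 at 16 weeks in TRAMP over wild type, with the 10 genes at 0.49 and 0.54, and the share of calls that were higher to 66.3% and 70.7%, against 50.5% and 53.1%. With GC correction that share was 40.2% at 24 weeks and the median of all genes −0.07. Srsf6 at 24 weeks missed the threshold with a replicate block and GC correction together (0.13, adjusted p = 0.0848, against 0.000409 to 0.0848 over 24 alternatives). Srsf5 at 16 weeks passed as lower after GC correction (−0.74, adjusted p = 0.0343, against 0.0122 to 0.19 over 24 alternatives). Groups of 1 or 2 libraries and an unknown read depth limit all of these values.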

Other observations

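Rbm3, a cold-induced RNA-binding protein on the list of temperature-responsive genes, had 37.0 and 35.8 FPKM in PEITC-fed against 26.1 and 33.3 FPKM in control-diet TRAMP prostates of 24 weeks, and 23.4 and 27.8 FPKM in PEITC-fed against 36.0 and 34.4 FPKM in control-diet prostates of 16 weeks. Its difference between ages was 0.74 on the log2 scale (SE 0.17, adjusted p = 0.305), of the same sign as that of Srsf10. Cirbp, the other cold-induced protein of the list, was at −0.20 (SE 0.20, adjusted p = 0.707). In TRAMP over wild type at 24 weeks Rbm3 rose by 0.49 (SE 0.10, adjusted p = 0.00462), and Cirbp and the chaperone Hspa5 fell by 0.45 (SE 0.12, adjusted p = 0.016) and by 0.91 (SE 0.10, adjusted p = 0.00017).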
